A study of Ananas comosus with 78 samples.

Results

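These data describe 268 pineapple (Ananas comosus) genes whose transcripts were higher on day 3 after ethephon than after water both at the stem apex and at the leaf base. The genes were chosen by a readout of these same libraries. On day 3 each reached a log2 fold change of 1 or more with an adjusted p below 0.05 in both tissues, and none was called at the apex at 6 h, where a call meant an adjusted p under 0.05 and a change of at least 1 on the log2 scale in either direction. Of 27024 genes in the files, 1563 were called higher at the apex and 891 at the leaf base on day 3, and 299 were called in both. From these, 28 were set aside for a call at the apex at 6 h and 3 more (Aco001697, Aco007145 and Aco017378) by name, which left 268.

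Field-grown plants received 10 ml of water or 50 mg of ethephon in 10 ml in the center of the plant. The cultivar is given as 'MD1' in the sample characteristics and as 'MD2' in the growth protocol, both PRI 73-50. Stem apices were sampled at a time called 6 h, then once a day until day 6, and again on day 8. The base of the 'D' leaf, the most recently matured leaf, was sampled at 6 h and on days 1, 2, 3 and 4. By the methods of the study, plants of the 6 h sampling were harvested earlier the same morning. Their tissue was chilled on ice and dissected later, and 6 h is when that processing ended. Plants of later samplings were harvested in the morning and processed by noon. Each of these 26 groups held 3 libraries, 78 in all, each made from the pooled tissue of 3 plants, so a p-value measures the spread between such pools. The labels give the samplings as numbers under a tag for days after treatment, 1 to 8 for the apex and 1 to 5 for the leaf base. The times used here follow the Results of the study, whose methods also name day 5 for the leaf base.

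Ethephon breaks down in plant tissue and releases ethylene, and growers use it to force pineapple to flower. In Arabidopsis the hormone relieves a block on EIN3-type transcription factors, which in turn act on genes of the AP2/ERF family, and these reach stress, growth and developmental genes. At the pineapple apex ethylene sets off the change from a leaf-forming to a flower-forming meristem. The base of a leaf receives the same treatment but bears no floral meristem, so transcripts followed in both tissues are not limited to the meristem. By the methods of the study, the cut apices still carried leaf primordia, and leaf bases were taken as a control for that reason. Apex libraries therefore hold young leaf tissue too.

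Library totals ran from 1418697 to 13180667 counts (median 5364715.5), and the 12 day 3 libraries from 3493614 to 7180761. Water and ethephon libraries shared no sequencing lane in any apex comparison or in those of the leaf base of days 3 and 4. Lane and treatment cannot be told apart in them, except at the apex on day 6, where a joint fit with lane could be made and called 58 genes higher against 66 without lane. On day 3 the water apices and the ethephon leaf bases were run on the same lane. These groups differ in tissue and helped to choose the genes, so their levels cannot show what lane did. A list of 6 apex marker genes, among them KNOTTED-like and WUSCHEL genes, summed to 67.7 to 114 CPM (the usual counts scaled to library size) in water apices and 305 to 323 CPM in ethephon apices of day 3, against 1.68 to 1.84 CPM in water and 1.26 to 3.11 CPM in ethephon leaf bases. Of the 6, Aco006233 (WUSCHEL) and Aco008339 (UNUSUAL FLORAL ORGANS) had no count in any day 3 leaf base library. Most of the sum came from Aco015873, with 70.7, 53.3 and 93.3 CPM in water apices and 232, 214 and 237 CPM in ethephon apices, while Aco008339 held 0.989, 0.789 and 0.738 against 0.739, 0.777 and 0.534 CPM. The higher marker sum in ethephon apices moved with the 268 genes there, and its part in their change was not tested. In whole tissue, fewer cells of a type and less RNA per cell cannot be told apart.

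Only 26 of the 268 genes had an annotation in the sources used here, 15 in the text of the study and 11 in the part of its gene table in hand. Of the 268, 252 lay on 25 linkage groups and 16 on scaffolds. Their median exon length was 1403.5 bases, against 1416 for all genes tested at the apex on day 3, with a median of 3 exons against 5. Exons of 16 overlapped another gene, and the read counter was run with no strand option, so the counts of these genes are uncertain. The mean count over the 12 day 3 libraries ran from 3.42 to 10900 (median 126.5).

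In the ethephon apices, the median level of the 268 genes climbed to day 3 and then fell back. It was 2.32 ± 0.16 log2 CPM (SD, n = 3) at 6 h, 3.23 ± 0.19 on day 1, 3.65 ± 0.2 on day 2 and 4.6 ± 0.02 on day 3. From day 4 to day 6 it stayed between 3.84 and 3.94, and on day 8 it was 3.02 ± 0.22. The water apices stood at 1.9 ± 0.24 at 6 h, at 2.52 to 2.65 from day 1 to day 3 and at 3.57 ± 0.12 on day 4, where the groups came closest before day 8. In the ethephon leaf bases the median peaked on the same day, with 3.57 ± 0.06 on day 2, 5.18 ± 0.16 on day 3 and 4.42 ± 0.1 on day 4. The 268 genes together took 0.551 to 0.712% of all counts in water apices of day 3 and 1.79 to 2.05% in ethephon apices, and 0.716 to 0.798% against 2.19 to 2.53% at the leaf base. Since day 3 chose the genes, these values describe the choice and carry no test.

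**Figure D1:**
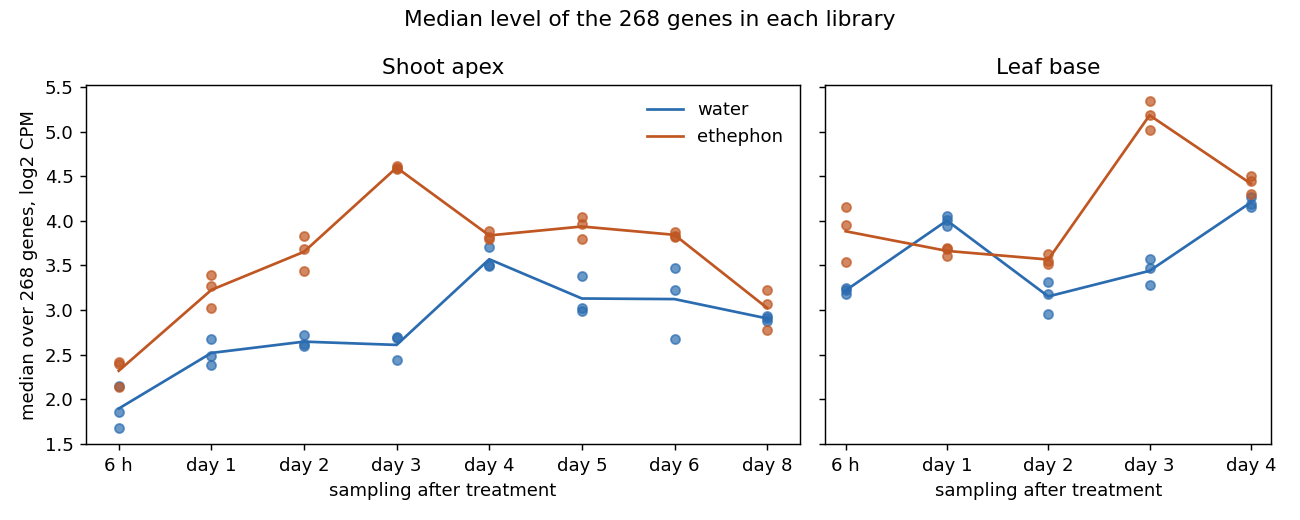
Median level of the 268 genes (y axis, log2 CPM) in each of the 78 libraries by sampling (x axis), for the apex (left) and the leaf base (right). Points are libraries and lines join the means of 3. Ethephon libraries peaked in both tissues on day 3 (4.6 and 5.18), the day that chose the genes. Water leaf bases swung between 3.15 on day 2 and 4.21 on day 4.

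In ethephon apices, 219 of the 268 genes were higher on day 3 than on both day 2 and day 4, and day 3 was the highest of the 8 samplings for 180. In ethephon leaf bases the same held for 250 genes, and day 3 was the highest of 5 samplings for 217. Day 3 chose the genes, so a peak there follows in part from the choice, and these counts carry no test. The water controls were not flat. Over the water samplings the median gene ranged over 2.24 log2 units at the apex and 2.31 at the leaf base. At the apex 39 genes, and at the leaf base 71, reached in some water group a mean at or above that of the ethephon group of day 3. Leaf bases did so for 50 genes on day 1 and for 47 on day 4. The median difference between the water groups of day 3 and day 4 was -0.96 log2 units at the apex and -0.67 at the leaf base. None of these counts and ranges was taken over all genes.

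The median log2 fold change on day 3 was 1.76 at the apex (quartiles 1.39 and 2.5) and 1.51 at the leaf base (1.22 and 2.03), in comparisons where 7.2% and 4.03% of all genes tested were called higher and 7.19% and 3.1% lower. At the apex at 6 h, where by choice none of the 268 was called, 1.86% of all genes were higher and 1.87% lower. At the apex limit of 1, the nearest genes inside were Aco017150 (1.005), Aco015755 (1.012) and Aco004287 (1.017) and the nearest outside Aco009550 (0.9968), Aco031509 (0.9882) and Aco013595 (0.9853). At the leaf base they were Aco022209 (1.002), Aco018025 (1.003) and Aco002464 (1.004) inside, and Aco000578 (0.995), Aco009959 (0.9914) and Aco012277 (0.9889) outside. Around the adjusted p of 0.05, Aco007059 (0.04836), Aco010630 (0.04757) and Aco015837 (0.04232) were inside and Aco022010 (0.05022), Aco012570 (0.05171) and Aco003413 (0.05252) outside at the apex. At the leaf base Aco001259 (0.04752), Aco017756 (0.046) and Aco031679 (0.04305) were inside and Aco016714 (0.05152), Aco013527 (0.05487) and Aco009929 (0.05514) outside. At the apex at 6 h, Aco017089 (log2 fold change 0.9988), Aco012157 (-0.9653) and Aco008819 (0.9455) stayed under the limit on the fold change, while Aco021247 (adjusted p = 0.04962), Aco014542 (0.04743) and Aco010206 (0.04498) were set aside.

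At the apex samplings that did not choose the genes, more of the 268 genes were called higher than lower after ethephon, and the counts were highest on days 1, 2 and 5. On day 1, 89 were called higher (33.3% of the 267 tested, against 7.7% of all genes) and 3 lower (1.12% against 3.63%). On day 2, 116 were higher (43.3% against 9.76%), and on day 4 it was 42 (15.7% against 3.53%) with 6 lower (2.24% against 2.12%). It was 92 on day 5 (34.3% against 3.83%), 66 on day 6 (24.6% against 3.46%) and 34 on day 8 (12.7% against 2.82%), where 13 were lower (4.85% against 4.73%). No gene was called lower on days 2, 5 and 6, against 5.34, 1.23 and 2.59% of all genes, by edgeR's quasi-likelihood test, by its exact test or by DESeq2, and at an unadjusted p under 0.05 there were 0, 1 and 2. The median log2 fold change of the 268 genes was 0.64, 1.06, 0.24, 0.65, 0.63 and 0.16 on days 1, 2, 4, 5, 6 and 8 in turn, beside medians between -0.06 and 0.01 over all genes.

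**Figure D2:**
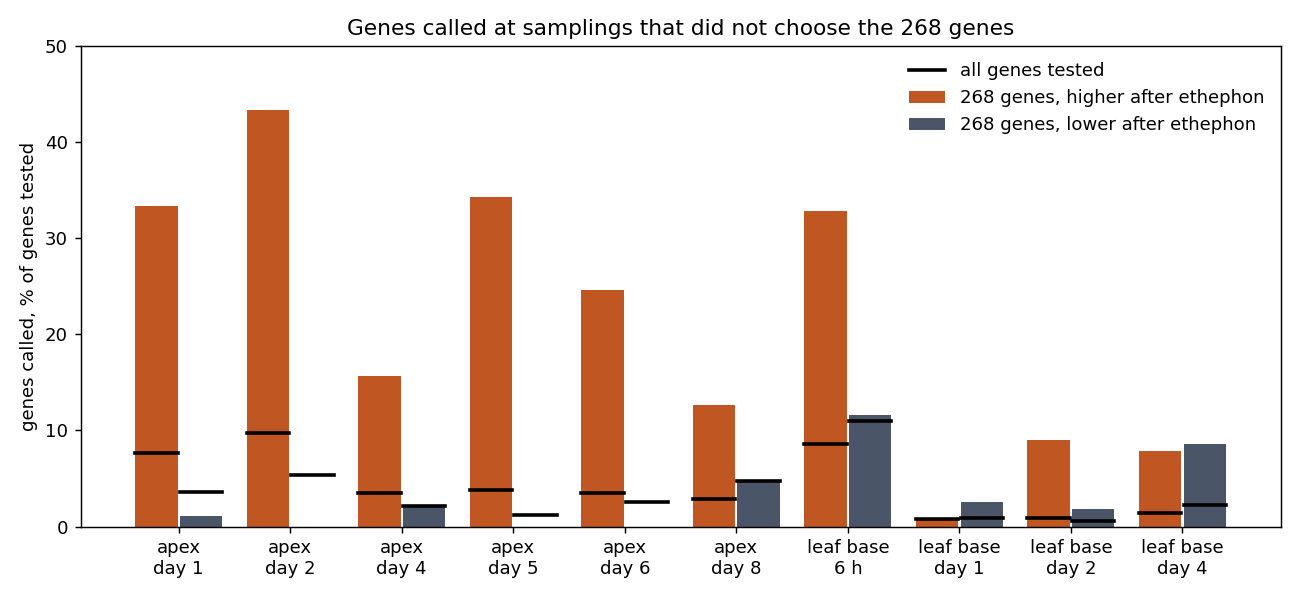
Share of the 268 genes called higher (orange) or lower (grey) after ethephon in the 10 comparisons that did not choose them (x axis), in % of the genes tested (y axis, from 0). Black lines give the same share of all genes tested. At the apex the share called higher was 33.3% on day 1, 43.3% on day 2 and 34.3% on day 5, against 7.7, 9.76 and 3.83% of all genes.

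The calls at the apex were spread unevenly over the genes. Of the 268, 99 were called higher at none of these 6 samplings, 47 at 1, 47 at 2, 28 at 3, 26 at 4, 16 at 5 and 5 at all 6. Of the 20975 genes tested in both tissues on day 3, 81.9% were called higher at none of the 6, 9.74% at 1, 5.16% at 2, 1.67% at 3, 0.872% at 4, 0.544% at 5 and 0.0858% at all 6. On both day 1 and day 2, 70 of the 268 were called higher (26.1% against 5.05% of the 20975), and 23 on days 1, 2, 5 and 6 (8.58% against 0.596%).

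Leaf bases gave a mixed picture. At 6 h, 88 of the 268 genes were called higher (32.8% against 8.59% of all genes) and 31 lower (11.6% against 11%), and the lower count was 18 without ethephon replicate 3. On day 1, 2 were higher (0.746% against 0.748%) and 7 lower (2.61% against 0.874%), with a median log2 fold change of -0.38. On day 2, 24 were higher (8.96% against 0.898%) and 5 lower (1.87% against 0.582%). That count rested on few libraries, with 15 without ethephon replicate 2, 7 without ethephon replicate 3, 9 without water replicate 2 and 42 without water replicate 3. On day 4, 21 were higher (7.84% against 1.4%) and 23 lower (8.58% against 2.23%). The 21 became 12 without ethephon replicate 1, 8 without ethephon replicate 2 and 0 without water replicate 2, and the 23 became 14 without ethephon replicate 2 and 10 without water replicate 2.

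Across the 10 comparisons, 169 genes were called higher at another apex sampling (63.1% against 18.1% of the 20975), 117 at another leaf base sampling (43.7% against 11.3%) and 76 at both (28.4% against 3.91%), while 58 were called higher at none (21.6% against 74.6%). Of the 268, 45 were called lower at the leaf base at 6 h or on day 4 (16.8% against 11.7%), 9 of them at both. Among these 45 were 34 called higher at another apex sampling (12.7% of the 268, against 3.16% of the 20975 with both calls), 25 of them on day 5 (9.33% against 1.07%).

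The difference between the tissues was tested as an interaction on the days that did not choose the genes. It was called in either direction for 99 genes on day 1 (9.8% of all genes), 63 on day 2 (10.5%) and 68 on day 4 (7.38%). On day 1 the log2 fold change was higher at the apex than at the leaf base for 96 of the 268 genes (35.8% against 6.63% of all genes) and lower for 3 (1.12% against 3.17%). A higher value is meant with its sign, so that a gene called lower at the leaf base alone is counted too. Of the 96, 76 were called higher at the apex and 4 were called lower at the leaf base. On day 2 the numbers were 56 (20.9% against 6.83%) and 7 (2.61% against 3.7%). On day 4 they were 49 (18.3% against 4.35%) and 19 (7.09% against 3.03%), and of the 49, 26 were called higher at the apex and 18 lower at the leaf base. The median interaction, given as leaf base minus apex, was -1.04 on day 1, -0.71 on day 2 and -0.03 on day 4.

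In water controls of day 4, the sampling at which the tissues were compared without ethephon, 122 of 267 genes were higher at the leaf base (45.7% against 17.6% of all genes) and 53 at the apex (19.9% against 15.6%). The median level was 0.74 log2 units lower at the apex, beside 0 over all genes. At the leaf base at 6 h, 30 of the 53 genes higher at the apex in water were called higher and 1 lower after ethephon, and 21 of the 122 genes higher at the leaf base were called higher and 23 lower. Of all 3492 genes higher at the apex in water, 25.8% were called higher and 5.73% lower at that sampling, and of all 3939 higher at the leaf base, 5.66% and 29.4%. At the apex on day 5, 10 of the 53 (18.9% against 4.5% of the 3492) and 52 of the 122 (42.6% against 9.93% of the 3939) were called higher. These splits were made after the levels were known and were not tested.

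The floral regulators come first among the annotated genes. AcFUL2 (Aco012428, linkage group 1, 2127109 to 2132551) is a MADS-box gene of the FRUITFULL type, a group known in Arabidopsis for a role in the floral change of the meristem. Its water apices held no count on days 3, 4 and 5, and its ethephon apices held 38.9, 26.9 and 41.1 CPM on day 3, 55.5, 43.2 and 49.8 CPM on day 4 and 47.8, 63.5 and 62.5 CPM on day 5. The groups did not overlap, and the level was at least 47.1-fold, 88.8-fold and 108-fold higher, taking 3 counts in the shallowest water library as the floor. It was called higher at the 6 other apex samplings from day 1 on, with log2 fold changes of 3.15 ± 0.46 (SE) on day 1 (adjusted p = 7.01e-06) and 5.25 ± 0.51 on day 2 (adjusted p = 1.01e-07), and ended at 121, 84 and 112 CPM on day 8 against 0.362, 0.137 and 0.146 in water. Its leaf base counts were low. On day 3 the water libraries held 0.153, 0 and 0 CPM and the ethephon libraries 1.36, 3.05 and 0.404 CPM, a ratio of 32.2 with a counting interval from 5.29 to 1320. The study describes AcFUL2 as raised at the apex alone. Its day 3 call at the leaf base was lost without ethephon replicate 2 (adjusted p = 0.0875), and on day 2 its log2 fold change was higher at the apex (leaf base minus apex -6.86 ± 0.96, adjusted p = 9.78e-05).

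The MADS-box gene close to AGAMOUS-like 14 (Aco015104, linkage group 1, 24318710 to 24340976) was also called higher at the 6 other apex samplings from day 1 on. Its apices of day 3 held 18.3, 14.7 and 21.9 CPM with water and 93.8, 72.8 and 83.2 CPM with ethephon. On the unused days its log2 fold change ran from 1.33 ± 0.17 on day 8 (adjusted p = 2.49e-08) to 2.07 ± 0.18 on day 6 (adjusted p = 1.37e-06). In leaf bases of day 3 it held 3.53, 1.68 and 2.96 CPM with water and 7.39, 17.2 and 7.48 CPM with ethephon, and no other leaf base sampling was called. In water on day 4 it was 3.39 ± 0.25 log2 units higher at the apex than in leaf bases (adjusted p = 3.53e-08).

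The remaining flowering-related genes had a shorter course. Aco015741, a TCP gene of the TEOSINTE BRANCHED type known in maize to hold back axillary buds, had 0.66, 0.789 and 0.985 CPM in water apices and 5.66, 5.96 and 5.34 CPM in ethephon apices of day 3, and was called higher again on day 6 (1.85 ± 0.48, adjusted p = 0.0102) and day 8 (2.24 ± 0.67, adjusted p = 0.00944). The day 8 call was lost without ethephon replicate 3 (adjusted p = 0.0566), and its exon overlaps Aco015742. Aco000726, annotated as SQUAMOSA promoter binding protein-like 14, a family that in Arabidopsis promotes the passage to flowering, was called on day 3 alone. Its ethephon apices held 209, 209 and 196 CPM against 96.6, 92.2 and 98 in water, and its ethephon leaf bases 332, 392 and 363 CPM against 115, 120 and 139. It was called at none of the 10 other comparisons, where its log2 fold change stayed between -0.74 and 0.5.

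**Figure D3:**
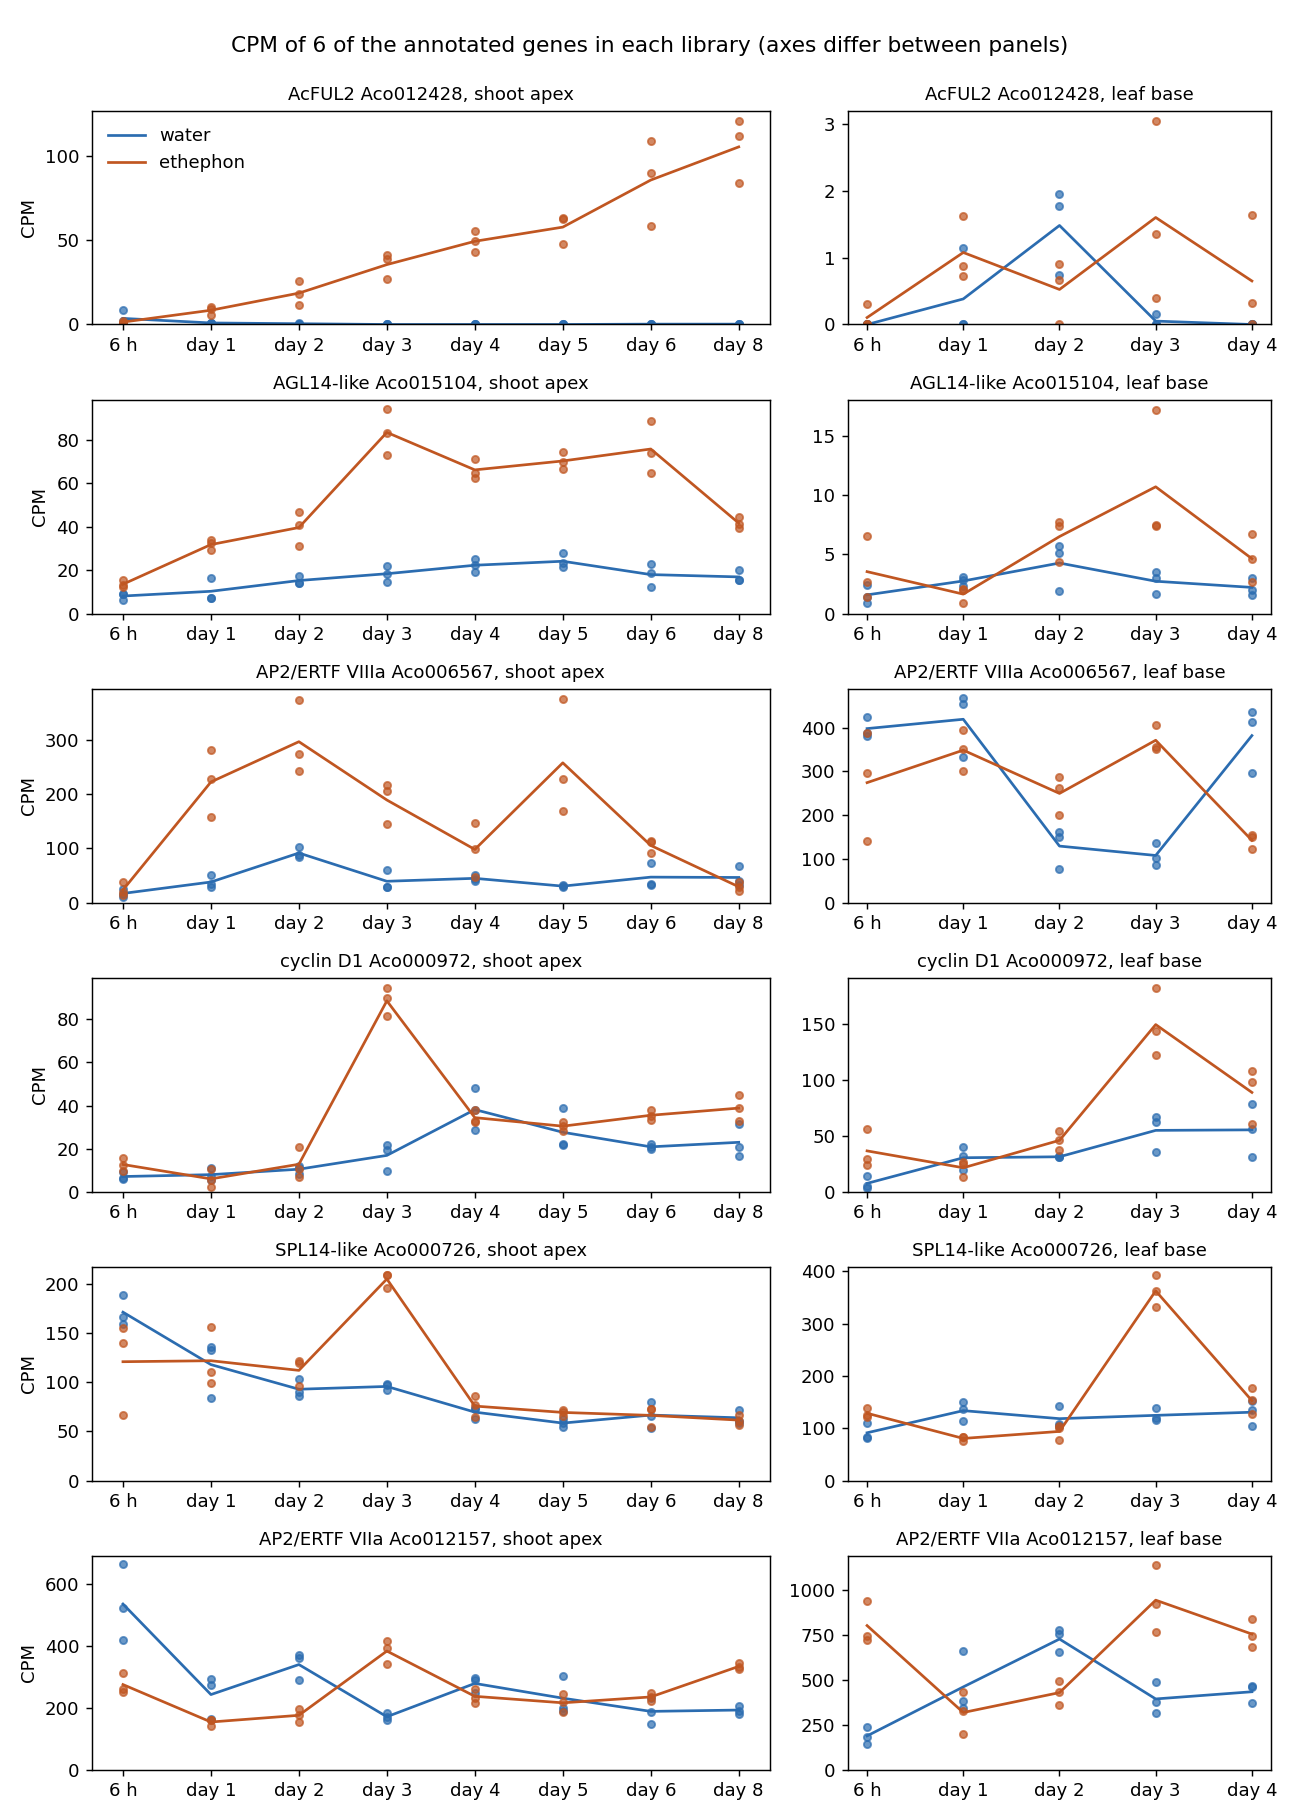
CPM (y axes, which differ between panels and start at 0) of 6 annotated genes in every library by sampling (x axes), apex at left and leaf base at right. Points are libraries and lines join the means of 3. AcFUL2 (Aco012428) climbed at the ethephon apex from day 1 to 121, 84 and 112 CPM on day 8, whereas the SPL14-like and cyclin D1 genes stood out in ethephon libraries on day 3 in both tissues.

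Genes annotated with cell division or growth follow. Cyclins of the D type bind kinases that let plant cells enter DNA replication. The D1 cyclin Aco000972 held 19.3, 21.8 and 9.35 CPM in water apices and 89.9, 94.6 and 81.4 CPM in ethephon apices of day 3, and 66.7, 35.4 and 62.1 against 182, 122 and 144 CPM at the leaf base. A day later the apex groups overlapped, with 48, 37.9 and 28.4 CPM in water and 38, 32.3 and 32.8 CPM with ethephon. No other apex sampling was called for it, but the leaf base at 6 h was (2.19 ± 0.42, adjusted p = 0.00124). Its neighbour Aco000971, with the same annotation, lies at 15265480 to 15266323 on linkage group 2 next to Aco000972 at 15259929 to 15263918, and reads that match both were counted for both. Its log2 fold change was 1.77 at the apex and 1.01 at the leaf base on day 3, where it was 0.92 without ethephon replicate 1, 0.94 without ethephon replicate 3 and 0.81 without water replicate 2. It was also called higher at the leaf base at 6 h (1.89 ± 0.53, adjusted p = 0.0152), a call lost without ethephon replicate 1 (adjusted p = 0.0999).

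Aco001020, annotated as histidine kinase 3, carries the name of a cytokinin receptor of Arabidopsis. Its apices of day 3 held 78.2, 74 and 71.6 CPM with water and 232, 200 and 233 CPM with ethephon, its leaf bases 18.7, 26.4 and 17.9 against 37.2, 44.5 and 50.9 CPM. The leaf base change of 1.04 was 0.93 without ethephon replicate 3, 0.96 without water replicate 1 and 0.94 without water replicate 3. None of the 10 other comparisons called it, and in water on day 4 it was 2.89 ± 0.15 log2 units higher at the apex (adjusted p = 1.17e-09). The growth-regulating factor Aco015755, of a family that promotes cell proliferation in leaves and flowers, was called higher at the apex on day 1 (1.2 ± 0.37, adjusted p = 0.0137), day 2 (1.3 ± 0.32, adjusted p = 0.00247) and day 6 (1.38 ± 0.27, adjusted p = 0.00132) and lower at the leaf base at 6 h (-1.1 ± 0.3, adjusted p = 0.0115). The day 1 call was lost without ethephon replicate 2 (adjusted p = 0.103), and the leaf base change shrank to -0.99 without ethephon replicate 3 and -0.93 without water replicate 1. On day 3 its apex change of 1.01 was 0.92 without ethephon replicate 2 and 0.85 without water replicate 2. Of the 6 growth-regulating factors the study names, all 6 were called higher at the apex on day 3 and 1 at the leaf base. Over all genes the shares called higher there were 7.2% and 4.03%. The study names the 6 as raised in these libraries, so their directions are not independent evidence. Of the 6, only Aco015755 is among the genes chosen here. At the apex 3, 5, 1, 1, 3 and 1 were called higher on days 1, 2, 4, 5, 6 and 8. The shares of all genes were 7.7, 9.76, 3.53, 3.83, 3.46 and 2.82% in turn. At the leaf base 3 were higher and 1 lower at 6 h, against 8.59% and 11% of all genes. None was higher there on days 1, 2 and 4.

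Of the 38 AP2/ERTFs (AP2 and ethylene response transcription factors) that the study names, 5 were among the 268 genes. The study chose those 38 on these libraries, so their directions are not independent evidence. The directions do not all match. At the leaf base on day 3 the study lists Aco006567 as down, where it was called higher here. It lists no call there for Aco002673, Aco011669, Aco012157 and Aco012858, which were called higher here. The reason was not tested. On day 3, 13 of the 38 were called higher and 9 lower at the apex, and 13 higher and 7 lower at the leaf base. Over all genes the day 3 shares were 7.2% higher and 7.19% lower at the apex, and 4.03% and 3.1% at the leaf base. At the apex the number called higher was 9 at 6 h, where 37 were tested, and 21, 15, 12, 11, 4 and 0 on days 1, 2, 4, 5, 6 and 8, and the number called lower was 0 at 6 h and 0, 1, 1, 0, 2 and 16 on those days. Of all genes, 1.86% were higher at 6 h and 7.7, 9.76, 3.53, 3.83, 3.46 and 2.82% on those days. The shares lower were 1.87% at 6 h and 3.63, 5.34, 2.12, 1.23, 2.59 and 4.73% on those days. At the leaf base the counts were 6 higher and 10 lower at 6 h, 3 and 1 on day 1, 3 and 0 on day 2, and 2 and 10 on day 4. Over all genes the shares there were 8.59% higher and 11% lower at 6 h and 0.748% and 0.874% on day 1. They were 0.898% and 0.582% on day 2 and 1.4% and 2.23% on day 4. Aco006567, of group VIIIa, whose Arabidopsis members include repressors, held 29, 28.3 and 60.6 CPM in water apices and 217, 145 and 206 CPM in ethephon apices of day 3. Apex calls came on days 1, 2, 4, 5 and 6, the largest on day 5 (3.08 ± 0.21, adjusted p = 2.07e-10), although the day 4 change of 1.13 shrank to 0.66 without ethephon replicate 3 and the day 6 change of 1.15 to 0.96 without water replicate 2 and 0.95 without water replicate 3. Its water leaf bases held 137, 101 and 85.2 CPM on day 3 and 412, 297 and 437 CPM on day 4, while the ethephon leaf bases went from 351, 406 and 357 CPM to 150, 123 and 154 CPM, so that it was called lower on day 4 (-1.39 ± 0.17, adjusted p = 0.000447). Its log2 fold change on day 4 was higher at the apex than at the leaf base (leaf base minus apex -2.53 ± 0.34, adjusted p = 3.25e-05).

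Aco012858, of group IXb, and Aco011669, of group IXa, belong to the ERF group that includes many activators of defence genes in Arabidopsis. Aco012858 held 2.8, 1.42 and 4.68 CPM in water apices and 23.9, 28.2 and 42.6 CPM in ethephon apices of day 3, and 8.28, 6.71 and 4.43 against 48.8, 84.1 and 59.6 CPM at the leaf base. It was called higher at the apex on day 1 (1.9 ± 0.31, adjusted p = 2.86e-05) and day 5 (2.6 ± 0.31, adjusted p = 1.01e-06). Its day 2 change of 1.17 was 0.98 without ethephon replicate 1, 0.96 without ethephon replicate 2 and 0.88 without water replicate 3, and the call was lost without water replicate 1 (adjusted p = 0.0512). Its day 4 change of 1.19 was 0.49 without ethephon replicate 3 and 0.92 without water replicate 3, with an adjusted p of 0.0534 without water replicate 1. Aco011669 was called higher at the apex on day 1 (1.65 ± 0.14, adjusted p = 2.3e-09) and day 5 (2.27 ± 0.19, adjusted p = 4.16e-09) and kept both calls under every alternative. At the leaf base neither gene was called outside day 3, and on day 1 the log2 fold change of both was higher at the apex (leaf base minus apex -2.81 ± 0.4 and -2.05 ± 0.21, adjusted p = 4.8e-05 and 1.82e-06).

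The other AP2/ERTFs differed from these. Aco012157, of group VIIa, the group of the oxygen-sensing ERFs of Arabidopsis, had 169, 183 and 161 CPM in water apices and 341, 415 and 394 CPM in ethephon apices of day 3. It was called at no other apex sampling, and its log2 fold change there was -0.64 on day 1 and -0.92 on day 2. A call at the leaf base came at 6 h, where the water libraries held 239, 145 and 180 CPM and the ethephon libraries 939, 724 and 745 CPM (2.1 ± 0.2, adjusted p = 5.08e-06). Aco002673, of group IIb, had 1 count in the 3 water apices of day 3 and 4.43, 5.44 and 4.94 CPM with ethephon, a ratio of 80 with a counting interval from 13.9 to 3200, and 3.68, 2.38 and 1.97 against 28.6, 53.3 and 32.1 CPM at the leaf base. At the apex it was listed at 0 in all 6 libraries at 6 h. Its call at the leaf base on day 2 (2.76) was lost without ethephon replicate 2 (adjusted p = 0.123), ethephon replicate 3 (0.174) or water replicate 2 (0.156).

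Other DNA-binding and signalling genes follow. The WRKY gene Aco000358, of a family that acts in defence and stress, was called higher at the apex on day 1 (1.82 ± 0.34, adjusted p = 0.00019) and day 5 (2.07 ± 0.21, adjusted p = 1.27e-07). Its water leaf bases went from 25.9, 17.7 and 15.1 CPM on day 3 to 200, 156 and 216 CPM on day 4, and its ethephon libraries from 115, 132 and 129 CPM to 78.2, 34.2 and 72.8 CPM, and it was called lower on day 4 (-1.59 ± 0.24, adjusted p = 0.00139). The apex call of day 2 (1.39) was lost without ethephon replicate 1 (adjusted p = 0.119), water replicate 1 (0.0705) or water replicate 3 (0.107), and the leaf base call of day 2 (1.87) without ethephon replicate 2 (0.0519), ethephon replicate 3 (0.0829) or water replicate 2 (0.0652). The WRKY gene Aco005240 had 12.9, 9.94 and 10.3 CPM in water apices and 42.6, 47.2 and 49.5 CPM with ethephon on day 3, and no call at another apex sampling. Its leaf base call at 6 h (1.1) was lost without ethephon replicate 1 (adjusted p = 0.15), water replicate 2 (0.0816) or water replicate 3 (0.094). The Myb-like gene Aco017254 was called higher at the leaf base at 6 h, from 0, 1.04 and 1.65 CPM with water to 18.9, 10.9 and 10.3 CPM with ethephon (3.64 ± 0.51, adjusted p = 0.000104). It was also called higher at the apex on days 6 and 8. The day 6 call was lost without ethephon replicate 2 (adjusted p = 0.0749), that of day 8 without ethephon replicate 1 (0.0552) or ethephon replicate 2 (0.0925). The protein kinase Aco009459 rose at the apex on day 1 (1.1 ± 0.15, adjusted p = 4.15e-06) and day 5 (2.03 ± 0.15, adjusted p = 7.98e-10), and its water leaf bases held 29.3, 25.9 and 25 CPM on day 3 and 131, 144 and 148 CPM on day 4. Its leaf base call of day 4 (-1.03) was lost without ethephon replicate 1 (adjusted p = 0.109), ethephon replicate 2 (0.111) or water replicate 2 (0.272), and without water replicate 3 the change, -1 after rounding, was under the limit.

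**Figure D4:**
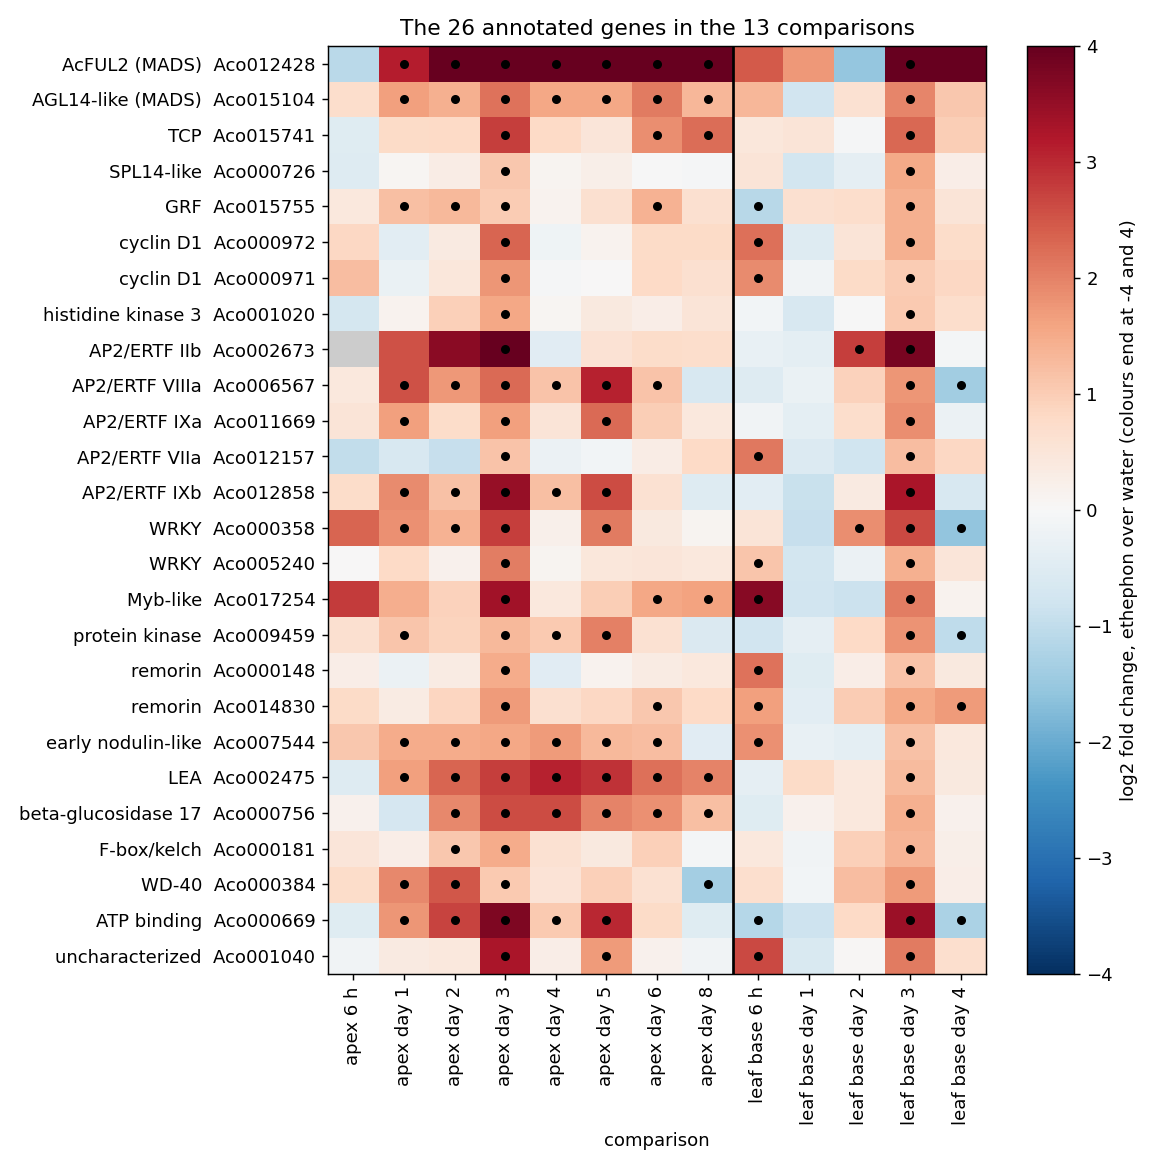
Log2 fold change, ethephon over water (colour, ending at -4 and 4), of the 26 annotated genes (rows) in the 13 comparisons (columns, apex left of the line and leaf base right of it). Black dots mark calls, and grey marks a gene with no count. All 26 carry a dot on day 3 in both tissues by choice, 12 carry one at the apex on day 1, and 4 were called lower at the leaf base on day 4.

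Genes of the plasma membrane and of stress included both remorins of the annotated set, proteins that sit in membrane domains. Aco014830 held 12.2, 16.7 and 11.8 CPM in water apices and 50, 37.1 and 47.6 CPM in ethephon apices of day 3, and Aco000148 10.4, 12.3 and 9.6 against 32.5, 32.9 and 27.6 CPM. Aco000148 was called at no other apex sampling and Aco014830 on day 6 (1.09 ± 0.17, adjusted p = 0.00025), where the change was 0.96 without water replicate 3. Aco014830 was also called at the leaf base on day 4 (1.69), a call lost without water replicate 2 (adjusted p = 0.0638). In leaf bases of 6 h Aco000148 was called higher, from 0, 2.43 and 2.25 CPM to 9.85, 6.78 and 6.08 CPM (2.17 ± 0.53, adjusted p = 0.00628). Aco014830 was called higher there too. That call was lost without ethephon replicate 1 (adjusted p = 0.0553), ethephon replicate 3 (0.0623) or water replicate 2 (0.0621).

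The late embryogenesis abundant gene Aco002475, of a family that protects cells that dry out, was called higher at all 6 apex samplings from day 1 on that did not choose it, from 1.65 ± 0.23 on day 1 (adjusted p = 3.13e-06) to 3.08 ± 0.25 on day 4 (adjusted p = 1.71e-11). Its apices of day 4 held 1.58, 1.65 and 3.05 CPM with water and 19.2, 14.8 and 19.2 CPM with ethephon. Among its leaf base comparisons only day 3 was called, where the groups were 13.7, 13.3 and 6.08 CPM against 18.1, 37.5 and 25.1 CPM, and that call was lost without ethephon replicate 2 (adjusted p = 0.0551) and fell to a change of 0.98 without water replicate 3. The early nodulin-like gene Aco007544 was called higher on days 1, 2, 4, 5 and 6 at the apex, between 1.24 ± 0.16 (adjusted p = 4.46e-05) and 1.69 ± 0.19 (adjusted p = 1.96e-08), and at the leaf base at 6 h, from 17, 17 and 17.9 CPM to 53.7, 76 and 55.9 CPM (1.84 ± 0.19, adjusted p = 7.44e-06). Beta glucosidase 17 (Aco000756), an enzyme class that frees sugars and conjugated compounds, went at the apex from 56.3, 78.3 and 79.2 CPM with water to 422, 401 and 501 CPM with ethephon on day 4 (2.62 ± 0.11, adjusted p = 1.43e-18), was called higher from day 2 to day 8, and was called at the leaf base on day 3 only.

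The last annotated genes are broad in name. Aco000669, an ATP binding protein, was higher at the apex on day 5 (3.02 ± 0.25, adjusted p = 4.65e-09), and at the leaf base of day 3 it held 2.61, 2.24 and 2.3 CPM with water and 23.1, 35.5 and 20.2 CPM with ethephon. At the apex it was also called higher on days 1, 2 and 4, the last lost in 4 of 12 alternative fits. At the leaf base it was called lower at 6 h (-1.47 to -0.95 over the alternative fits) and on day 4 (-1.67 to -0.86). Those calls were lost in 3 of 13 and 5 of 12 fits. The WD-40 repeat gene Aco000384 was higher at the apex on day 2 (2.49 ± 0.18, adjusted p = 1.54e-09), from 8.45, 7.26 and 9.14 CPM to 44.4, 46.2 and 46.9 CPM, and lower on day 8 (-1.36 ± 0.22, adjusted p = 4.22e-06). Its day 3 change at the apex, 1.05, was 0.95 without ethephon replicate 2 and 0.71 without water replicate 2. The F-box/kelch-repeat gene Aco000181 had an apex call on day 2 (1.08 ± 0.36, adjusted p = 0.0219) that was lost without water replicate 1 (adjusted p = 0.0921), water replicate 2 (0.0505), ethephon replicate 2 (0.0544) or ethephon replicate 3 (0.0593). The uncharacterized Aco001040 was called higher at the leaf base at 6 h (2.64 ± 0.43, adjusted p = 0.000324).

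Among the genes without annotation, Aco006759 and Aco011824 were each called higher in 8 of the 10 other comparisons. In water apices Aco006759 held 0.165, 0 and 0 CPM on day 3 and 0, 0.137 and 0 CPM on day 8, and in ethephon apices 46.5, 53.9 and 49.9 CPM and 43.9, 39.1 and 40.5 CPM. Against 1 water count on each of these days the ratios were 812 and 1230, with counting intervals from 145 to 32100 and from 219 to 48800. Its exons overlap Aco006760, and the gene beside it, Aco006758, is also among the 268, with 0.165, 0 and 0 CPM in water apices and 7.88, 7.51 and 5.2 CPM in ethephon apices of day 3. On linkage group 1 they lie at 22141019 to 22143724 and 22144763 to 22145107. In leaf bases of day 4 Aco006759 held 0.795, 0.319 and 1.39 CPM with water and 6.36, 4.23 and 7.87 CPM with ethephon (2.92 ± 0.52, adjusted p = 0.00352), a call lost without water replicate 2 (adjusted p = 0.0606). The call of Aco006759 in leaf bases of 6 h (2.78) was lost without ethephon replicate 1 (adjusted p = 0.0974), water replicate 2 (0.0615) or water replicate 3 (0.117).

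Aco011824 was called higher at every apex sampling from day 2 on, with the largest of these changes on day 4 (3.5 ± 0.28, adjusted p = 1.34e-11). Its calls at the leaf base of 6 h and of days 2 and 4 were all lost without water replicate 2 (adjusted p = 0.127, 0.0544 and 0.212). The call at 6 h was also lost without ethephon replicate 1 (0.0605), ethephon replicate 3 (0.173) or water replicate 1 (0.0935), and that of day 4 without ethephon replicate 2 (0.0507) or ethephon replicate 3 (0.0688). Aco025472 was called higher at the leaf base on days 1, 2 and 4. Its leaf bases of day 2 held 379, 453 and 268 CPM with water and 1050, 1700 and 1050 CPM with ethephon (1.76 ± 0.25, adjusted p = 0.00604), and on day 4 196, 247 and 518 against 1330, 1610 and 1300 CPM (2.18 ± 0.28, adjusted p = 0.000459, and 0.0564 without water replicate 2). In water on day 4 it was lower at the apex, with an apex minus leaf base difference of -7.61 ± 0.45 on the log2 scale (adjusted p = 4.33e-09). On days 1 and 2 its log2 fold change was higher at the leaf base (leaf base minus apex 1.85 ± 0.51 and 1.52 ± 0.32, adjusted p = 0.0138 and 0.0027).

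Aco006428 had the highest mean count of the 268 genes, 10900. Per kilobase of exon it stood at 3940 CPM in ethephon apices and 690 CPM in ethephon leaf bases of day 3. Its day 3 apex change of 1.08 was 0.9 without ethephon replicate 2, 0.95 without water replicate 1 and 0.96 without water replicate 2. Its apices of day 1 held 1160, 1350 and 1320 CPM with water and 5030, 5730 and 5470 CPM with ethephon (2.1 ± 0.14, adjusted p = 3.88e-11), and at 6 h its leaf bases went from 83.9, 17.4 and 69.2 CPM to 310, 361 and 516 CPM (2.79 ± 0.4, adjusted p = 0.000112). Aco012031 was called higher at all 6 apex samplings from day 1 on that did not choose it and at the leaf base at 6 h, from 4.85, 2.78 and 5.85 CPM to 76.5, 60.2 and 64.4 CPM (3.83 ± 0.24, adjusted p = 2.72e-07). Its day 1 change of 1.04 at the apex was 0.88 without water replicate 2 and 0.93 without water replicate 3, and its day 3 change of 1.09 at the leaf base was 0.79 without ethephon replicate 2. Aco001183 and Aco005195 were each called higher at 5 of the 6, most at 2.77 ± 0.26 (adjusted p = 5.66e-08) and 4.46 ± 0.53 (adjusted p = 1.27e-06) on day 2. The day 4 change of Aco001183, 1.07, was 0.94 without ethephon replicate 3 and 0.99 without water replicate 1 or water replicate 3.

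The changes on day 3 that were largest in the weaker tissue include 4 genes not yet described. Aco001643 held 0.495, 0.631 and 0.492 CPM in water apices and 19.2, 14.5 and 19.3 CPM in ethephon apices, and 4.3, 2.52 and 2.63 against 119, 218 and 119 CPM at the leaf base. By choice both tissues were far apart from their controls on day 3. The leaf bases of day 4 lay close together, at 30.8, 35.3 and 25.6 CPM with water and 46.7, 36 and 51.8 CPM with ethephon, and were not called. At the apex Aco001643 was also called higher on days 1, 5 and 6. Over the alternative fits its log2 fold change there was 2.01 to 2.43, 1.8 to 2.33 and 1.42 to 1.99. The day 6 call was lost in 1 of 13 such fits. Aco015021 held 6.43, 2.37 and 4.92 against 35, 24.6 and 46.3 CPM at the apex and 7.98, 6.29 and 3.94 against 48, 59.3 and 47.7 CPM at the leaf base. Aco012480 was low at the apex (0.33, 0 and 0.246 against 1.48, 1.55 and 1.33 CPM), and that apex call was lost without water replicate 2 (adjusted p = 0.0903).

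Aco009931 shows how the leaf base controls moved. Its water leaf bases held 147, 313 and 271 CPM on day 1, 3.1, 2.65 and 5.51 CPM on day 2, 4.76, 5.17 and 3.45 CPM on day 3 and 151, 204 and 115 CPM on day 4. Its ethephon leaf bases held 57.2, 49.1 and 45.3 CPM on day 3 and 17.2, 4.58 and 30.2 CPM on day 4. The log2 fold change was 3.46 ± 0.19 on day 3 and -3.13 ± 0.39 on day 4 (adjusted p = 0.000397).

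Of the 268 genes, 68 were called lower in at least 1 of the 10 other comparisons (25.4% against 23.6% of the 20975 genes) and 16 in at least 2 (5.97% against 7.49%). The 5 of these with the lowest mean fold change, Aco008244, Aco010009, Aco015326, Aco017302 and Aco005859, were all called lower in leaf bases of 6 h, and in water on day 4 all had their higher level at the leaf base. Aco017302 held 336, 493 and 496 CPM in water leaf bases at 6 h and 49.1, 80.9 and 64.1 CPM with ethephon (-2.77 ± 0.21, adjusted p = 9.37e-07), and on day 4 309, 325 and 244 against 155, 128 and 122 CPM (-1.08 ± 0.17, adjusted p = 0.00138). On day 3 the order was the reverse, with 82.1, 105 and 64.7 CPM with water and 231, 236 and 288 CPM with ethephon. Aco015326 held 145, 106 and 245 CPM with water and 24.1, 30.4 and 5.93 CPM with ethephon at 6 h (-3.05 ± 0.43, adjusted p = 0.000115). Aco008244 (-1.79 ± 0.18, adjusted p = 5.68e-06) and Aco005859 (-1.57 ± 0.32, adjusted p = 0.00192) were lower at 6 h as well, and so was Aco010009 (-1.27 ± 0.28, adjusted p = 0.00361), whose change was -0.99 without water replicate 2.

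Along the genome, 28 of the 268 genes stood next to another of them, in 14 pairs. Besides the D1 cyclins and the pair Aco006759 and Aco006758, a pair joined the AP2/ERTF Aco002673 (10539056 to 10539706 on linkage group 6) with Aco002672 (10527856 to 10532936). Aco001409 and Aco001408 on linkage group 18 (10765525 to 10770824 and 10769978 to 10774114) overlap each other. The linkage groups with the most of the 268 genes were 2 with 22, 3 with 21 and 4 with 18. The same counts were not made over all genes, so neither these numbers nor the pairs show a clustering. Coordinates are those of the deposited files, on version 3 of the pineapple genome (Acomosus_321_v3).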

How the data were processed

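RNA from stem apices and 'D' leaf bases was sequenced from 78 libraries, with 3 libraries for each tissue, treatment and sampling. Per the labels and the methods of the study, libraries came from a stranded mRNA kit, reads were trimmed with Trimmomatic 0.36, checked with FastQC 0.10.1, aligned with HISAT2 2.0.5 to Acomosus_321_v3 and counted with featureCounts 1.6.0. The deposited values are raw read counts per gene, not normalized by the authors. The counter ran on read pairs with multi-mapped reads kept and no strand option, so near-identical, overlapping and antisense genes are uncertain.

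Each comparison was fitted on its own 6 libraries in R 4.3.3 with edgeR 4.0.16 (TMM factors, quasi-likelihood test, genes with at least 1 count, Benjamini-Hochberg adjustment over all genes tested), as in the pairwise design of the study. A call is an adjusted p under 0.05 with an absolute log2 fold change of at least 1. The SE is the log2 fold change divided by the square root of F. Tissue differences were tested as the interaction of tissue and treatment over 12 libraries. Levels are CPM, scaled by TMM factors from the 78 libraries together, and medians over genes use log2 CPM with a prior count of 0.25. Floors are 3 counts in the shallowest library of the group, and 95% counting intervals are exact and cover counting error only.

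The 268 genes, the lists and the tests were chosen with earlier results of these data known. Named genes are the annotated ones, the 10 called higher in most of the 10 comparisons that did not choose them, the 10 with the largest smaller day 3 change at a mean count of at least 10, and the 5 with the lowest mean change among those called lower at least 2 times. Annotations came from the text of the study and from 858 genes of its gene table. No leaf marker gene was found in that table. Alternatives were DESeq2 1.42.0, edgeR's exact test, RLE factors, a filter of 1 CPM in 3 libraries, other limits on the fold change, a replicate block, joint fits and each library left out.

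The 78 pairs of libraries within groups differed by more than counting noise (lowest chi-square divided by the number of genes 1.56, median 7.65), so no library was counted as a repeat.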

Additional observations from a re-analysis of the deposited data

Results flagged for a closer look

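The change after ethephon differed between the tissues, by the test of the interaction, on the 3 days that allowed the test. The difference was called for 99 of the 268 genes on day 1 (9.8% of all genes tested), for 63 on day 2 (10.5%) and for 68 on day 4 (7.38%). On day 1, the log2 fold change was higher at the apex than at the leaf base for 96 of the 99, and the 76 of them called higher there include the AP2/ERTFs Aco006567, Aco011669 and Aco012858, the WRKY gene Aco000358 and the protein kinase Aco009459. On day 4, 10 of the 19 genes whose log2 fold change was higher at the leaf base were called higher there and 4 were called lower at the apex. No lane was shared between the treatments at the apex on these days, and lane and treatment cannot be told apart there.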

How the results depend on the processing

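Of 271 counts and levels recomputed under another setting, 235 stayed within 1.5 times the value given or within its spread and 36 moved further. Among 3788 fits of the 296 calls of the 43 named genes, 227 fell below a threshold and none changed direction. Of the 296, 219 were kept under every alternative, 68 were lost without at least 1 library and 34 under another setting. The 296 include the day 3 calls of both tissues that chose the genes. Many named genes were also picked for the number or size of their calls.

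The 268 genes themselves became 248 with DESeq2 (242 shared), 268 with RLE factors (266), 281 with the exact test (261), 277 with the 1 CPM filter (250), 277 in a joint fit (244), 700 without the limit on the log2 fold change (265) and 43 at a limit of 2. With no limit, genes called higher numbered 98 at the apex on day 4, 110 on day 6, 63 on day 8 (26 lower) and 41 at the leaf base on day 4. With a limit of 2 the counts at the apex were 26, 44, 11, 34, 18 and 11 on days 1, 2, 4, 5, 6 and 8 (1 lower on day 8), those at the leaf base 44 at 6 h (7 lower), 0 on day 1, 3 on day 2 and 4 on day 4 (3 lower), those of the interaction 51, 25 and 30 on days 1, 2 and 4, and 95 genes differed between tissues in water. On day 1 at the leaf base DESeq2 and the 1 CPM filter each gave 1. Shares of all genes were not taken at these limits and settings, so these counts cannot be set against them.

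Leaving out 1 library in turn gave 225 to 300 genes under the rule. At the apex the genes called higher ranged from 81 to 91 on day 1, 100 to 126 on day 2, 31 to 50 on day 4, 82 to 97 on day 5, 49 to 92 on day 6 and 28 to 36 on day 8 (11 to 14 lower). At the leaf base they ranged from 65 to 84 at 6 h (18 to 40 lower), 2 to 3 on day 1, 7 to 42 on day 2 and 0 to 23 on day 4 (10 to 32 lower). The interaction ranged from 90 to 107, 49 to 77 and 49 to 80 genes, and the tissue difference in water from 165 to 173. The cause of these shifts was not tested beyond the fewer samples each fit holds.

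The field was split into replications, and no source used here ties the replicate numbers of the libraries to them. Deviations of equal-numbered libraries correlated between -0.42 and 0.29, and in no comparison were all 3 over 0.1, so the libraries were not treated as pairs. A replicate block gave 268 genes under the rule, 249 of them shared, and 89, 110, 38, 91, 69 and 30 called higher at the apex, 85, 2, 16 and 18 at the leaf base. A fit with lane was estimable in 4 comparisons, with 58 genes at the apex on day 6, and 88, 2 and 27 at the leaf base at 6 h, day 1 and day 2, and was not run for the others. Of the 268 genes, 21 at the apex and 5 at the leaf base had 3 counts or fewer in every water library of day 3, and their fold changes rest on such counts.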
